A study of Macaca mulatta with 24 samples.

Results

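The genes described here encode the extracellular matrix of the gut wall: collagens, laminins, ADAMTS proteases and fibulins, found by the pattern of their symbols, together with a short list of matrix glycoproteins, proteoglycans and matrix-processing enzymes. In the gene symbols that the deposited table gives for the array, 59 of 16094 distinct symbols met this rule, carried by 109 probes. FBN2, THBS2, TNC and LOXL2, which the rule also names, were not analysed here. Each gene was represented by its brightest probe over the 24 arrays. Of the 59 genes, 55 could be tested because at least 1 group had its probe well above background in every animal, and 46 were so on all 24 arrays. The remaining 4 were too dim to be tested: LOX was well above background on 15 arrays, COL21A1 on 12, ADAMTS19 on 3 and COL19A1 on 2.

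The tissue was ileum from 24 young-adult male rhesus macaques, each contributing 1 array. The animals were sham-irradiated or received a single uniform total-body irradiation (TBI) with cobalt-60 gamma rays, of 6.7 Gy or 7.4 Gy. There were 4 unirradiated animals, labelled day 4, which served as the baseline for every time point, and each dose was followed in 4 animals to day 4, in another 4 to day 7 and in 2 to day 12. Pieces of the whole ileal wall were extracted without pooling, so a lower signal can come from fewer cells of a type or from less RNA per cell, and these cannot be told apart. All values are log2 signals relative to the 75th percentile of their array, so 0 is that percentile and 1 unit is a 2-fold difference. A gene is called altered when its adjusted p in limma was below 0.05 and its fold change at least 2.

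The extracellular matrix is the scaffold that cells make around themselves. Fibroblasts and smooth muscle cells of the gut wall secrete fibrillar collagens, which other collagens and small proteoglycans coat and space, and fibrillin microfibrils that carry elastin. Under the epithelium and around vessels and muscle, laminins and type IV collagen form the sheets of the basement membrane, which nidogen links together. Fibronectin, thrombospondin and periostin connect cells to this scaffold, and proteases of the ADAMTS family trim procollagens or cut large proteoglycans. The intestine is known for matrix turnover after radiation injury, with fibrosis as a late complication.

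Between 72.7% and 88.1% of probes were well above background on an array, the 75th percentile lay at an intensity of 837 to 1330, and no probe was saturated. The ileal markers FABP6, SLC10A2 and ANPEP were well above background on all 24 arrays. Unirradiated replicate 1 stood apart from the other controls: its mean over 4 smooth muscle markers was 2.84 against 4.97 to 5.04, its mean over 3 pericyte markers was -3.13 against -1.43 to -1.30, and its mean over the 55 matrix genes, as a difference from the mean of the controls, was -0.45 against 0.13 to 0.18. It was the lowest control for 42 of the 55 genes. The main counts and medians are therefore also given without it, as are gene values on day 4 after 7.4 Gy where leaving it out ends a call or changes a difference above 0.5 by more than 1.5 times. The arrays were on 6 slides of 4 positions, all controls were in position 1 and all animals of day 4 after 7.4 Gy in position 2, and all animals of days 7 and 12 in positions 3 and 4, so that in comparisons of those days with the controls or with day 4 array position and group cannot be told apart.

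Within the unirradiated ileum the genes differed in how far they varied between animals. Among the genes measured on all arrays, COL8A1, a network-forming collagen of vessel walls, had the wide range of -2.36, 0.45, 0.35 and -0.44. POSTN, a matricellular protein of fibroblasts, read -1.27, 0.41, 0.78 and 2.54. These were the widest of the ranges shown here, and in both replicate 1 was the lowest animal. The narrowest were those of ADAMTS1 (0.19), COL6A2 (0.20) and ADAMTS16 (0.22), as the difference between the highest and the lowest control.

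The question of the main comparisons was which matrix genes differed from unirradiated ileum at each dose and day. At 4 days, 7.4-Gy TBI had altered 10 of the 55 tested matrix genes, all higher: the proteoglycans DCN, LUM and VCAN, the adhesive glycoproteins FN1 and THBS1, the microfibril gene FBN1, the collagens COL3A1 and COL16A1, and the proteases ADAMTS2 and ADAMTS5. Their increases ran from 2.01-fold to 2.71-fold. Over all 14116 genes tested, 1.88% were called higher in this comparison and 0.815% lower, and no matrix gene was lower. Of the 55 genes, 40 had a positive difference, against 44.4% of all genes, and the median difference was 0.59, against -0.05 for all genes. At least a 1.5-fold higher mean was found for 28 of the matrix genes, and for 0 of them a 1.5-fold lower one. The share of all genes at this limit was not computed. Without control replicate 1 fewer matrix genes were this much higher, ADAMTS20 was this much lower (-0.59), and the median was 0.42. In 19 genes all 4 irradiated animals lay above all 4 controls, which held for 9.05% of all genes.

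**Figure D1:**
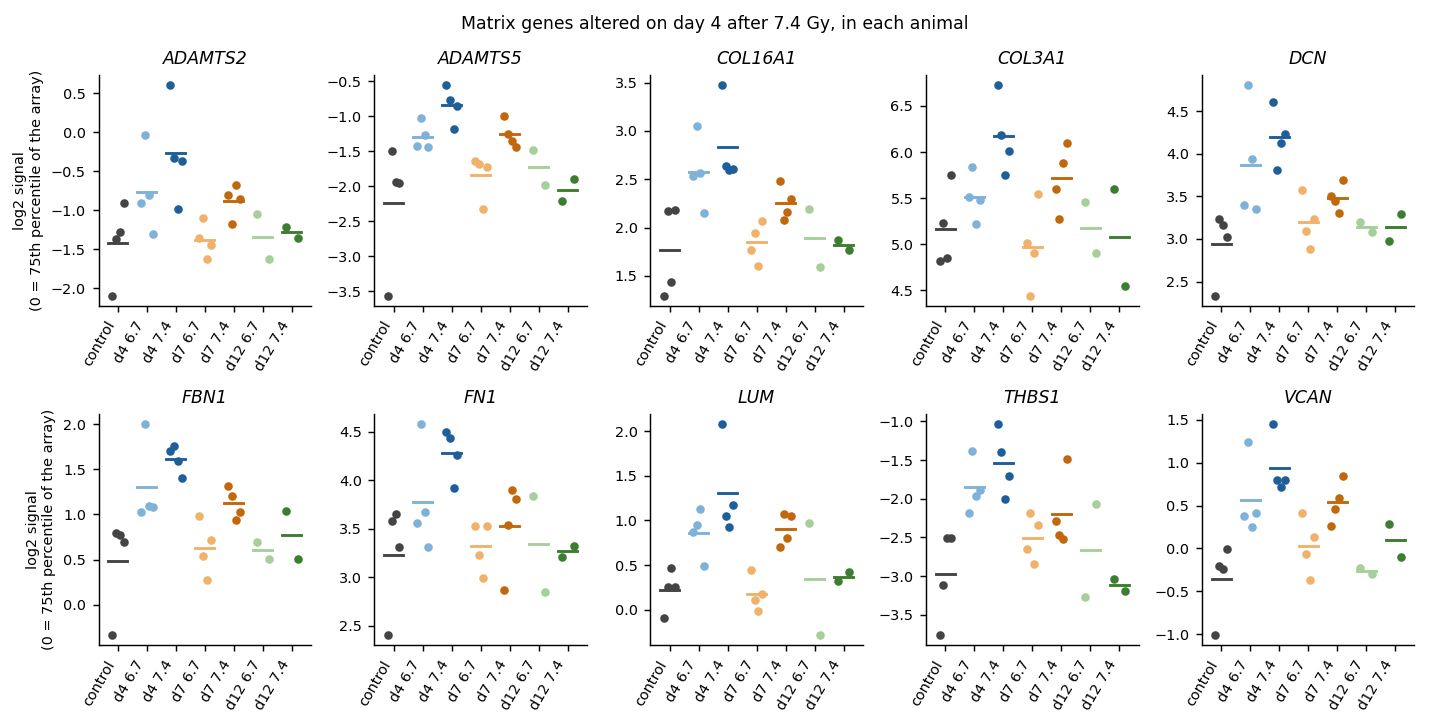
Log2 signal (0 is the 75th percentile of the array) of the 10 matrix genes altered on day 4 after 7.4 Gy, in each of the 24 animals by group; points are animals and bars are group means, d is day and the number after it the dose in Gy. The animals of day 4 after 7.4 Gy lie above all controls except in ADAMTS2, and the lowest control is in every panel replicate 1.

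The proteoglycans gave the largest group median of the day, 1.17, and 3 of the 4 were altered. DCN, or decorin, is a small leucine-rich proteoglycan that binds collagen fibrils. Its log2 signal was 2.33, 3.24, 3.16 and 3.02 in the 4 unirradiated animals and 4.60, 3.81, 4.13 and 4.24 in those of day 4 after 7.4 Gy. All irradiated animals were thus above all controls, by 1.26 on average (SE 0.26, 2.39-fold, adjusted p = 0.00973).

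LUM, or lumican, belongs to the same family and regulates fibril diameter. It read -0.10, 0.25, 0.47 and 0.25 in the controls and 2.07, 1.05, 0.92 and 1.18 after 7.4 Gy, a difference of 1.09 (SE 0.25, 2.12-fold, adjusted p = 0.0138). The irradiated animals again did not overlap the controls, with replicate 1 well above the other 3. VCAN, or versican, is a large proteoglycan that binds hyaluronan. It read -1.01, -0.20, -0.23 and -0.0023 in the controls and 1.45, 0.80, 0.71 and 0.80 after 7.4 Gy, which is 2.46-fold higher (log2 1.30, SE 0.24, adjusted p = 0.00459) and the smallest adjusted p of the matrix genes in this comparison. BGN, or biglycan, a relative of decorin, was 0.52 higher (SE 0.29, adjusted p = 0.29), with overlapping groups.

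Among the adhesive and matricellular glycoproteins the median difference was 1.002 and 2 of 4 were altered. Without control replicate 1 the differences were 1.17 in THBS1, 0.77 in FN1, 0.53 in SPARC and 0.34 in POSTN, and only THBS1 was called. THBS1, thrombospondin 1, is a cell-binding glycoprotein that activates latent TGF-beta and restrains angiogenesis. Its signal was -3.76, -3.11, -2.51 and -2.51 in the controls and -1.04, -1.39, -1.998 and -1.71 after 7.4 Gy. The lowest irradiated animal was above the highest control, and the mean difference of 1.44 (SE 0.31, 2.71-fold, adjusted p = 0.0109) was the largest of the 55 genes. FN1, or fibronectin, the main adhesive glycoprotein of the interstitial matrix, read 2.41, 3.57, 3.65 and 3.31 in the controls and 4.49, 4.43, 3.92 and 4.26 after 7.4 Gy. It was 2.06-fold higher (log2 1.04, SE 0.30, adjusted p = 0.0436) with no overlap. POSTN was 0.96 higher (SE 0.51, adjusted p = 0.263) with groups that overlapped, since control replicate 4 at 2.54 exceeded all 4 irradiated animals, and the difference was 0.34 without control replicate 1 at -1.27. SPARC, a collagen-binding glycoprotein, was 0.69 higher in animals that all exceeded the controls (SE 0.25, adjusted p = 0.1).

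The fibrillar collagens had a median difference of 0.81, and 1 of 5 was altered. COL3A1, the type III collagen chain of distensible tissues such as gut and vessels, read 4.82, 5.23, 4.85 and 5.748 in the controls and 6.73, 6.19, 5.753 and 6.01 after 7.4 Gy. Its lowest irradiated animal was barely above the highest control, and the mean was 2.01-fold higher (log2 1.01, SE 0.28, adjusted p = 0.0374), but it was not called without control replicate 1 (0.89, adjusted p = 0.12). The chains of type I collagen, the main collagen of the body, were not altered. COL1A1 was 0.69 higher (SE 0.23, adjusted p = 0.0747) and COL1A2 0.81 higher (SE 0.28, adjusted p = 0.082), both with all irradiated animals above all controls. COL24A1 was 1.02 higher with overlapping groups (SE 0.49, adjusted p = 0.217), and COL2A1, best known from cartilage, was the member of the group with a negative difference, -0.33 (SE 0.43), and was well above background on 2 of the 4 arrays after 7.4 Gy.

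Fibril-associated collagens sit on the surface of fibrils without forming fibrils of their own. All 4 that could be tested had positive differences (median 0.68), and COL16A1 was altered. It read 1.30, 2.18, 1.44 and 2.18 in the controls and 3.47, 2.64, 2.60 and 2.61 after 7.4 Gy, 2.08-fold higher (log2 1.06, SE 0.24, adjusted p = 0.0131). Replicate 1 was far above the other 3 irradiated animals, which still exceeded every control. COL12A1 passed the adjusted p but not the 2-fold limit, with 1.28, 1.73, 1.53 and 1.69 in the controls and 2.28, 2.77, 2.21 and 2.42 after 7.4 Gy (log2 0.86, SE 0.18, 1.81-fold, adjusted p = 0.00866). Without a fold limit, 12 matrix genes were higher, the other addition being NID1, where 4.2% of all genes passed. Without control replicate 1, 6 passed in this way: ADAMTS5, COL12A1, DCN, FBN1, THBS1 and VCAN. The share of all genes that passed in that refit was not computed.

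In the basement membrane the picture was uneven. NID1, or nidogen 1, which bridges laminin and type IV collagen, read -0.16, 0.73, 0.75 and 0.75 in the controls and 1.95, 1.25, 1.38 and 1.28 after 7.4 Gy (log2 0.95, SE 0.23, 1.93-fold, adjusted p = 0.0194), with no overlap, and without control replicate 1 it no longer passed (0.72, adjusted p = 0.0734). LAMB1 and LAMB2, the beta chains of laminins of stroma, muscle and vessels, were 0.73 (SE 0.23, adjusted p = 0.0564) and 0.59 higher (SE 0.23, adjusted p = 0.117), with overlapping groups in both. LAMB3, a chain of the laminin that anchors epithelia, had a difference of -0.27 (SE 0.28, adjusted p = 0.594), which was -0.10 without control replicate 1 and turned positive with array position as a covariate. Of the 5 basement membrane and anchoring collagens, 0 were altered. COL4A2, a chain of the common type IV collagen, was 0.67 higher (SE 0.27, adjusted p = 0.143), and COL15A1, which lies at the outer face of basement membranes, was 0.48 higher (SE 0.25, adjusted p = 0.249).

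Type VI collagen forms beaded filaments around cells and is assembled from 3 different chains. COL6A1 was 2.14-fold higher (log2 1.097, SE 0.33, adjusted p = 0.0515) and COL6A3 2.02-fold higher (log2 1.01, SE 0.31, adjusted p = 0.053), and neither passed the threshold. Without control replicate 1 they were at 0.78 (adjusted p = 0.182) and 0.75 (adjusted p = 0.183). The brightest probe of COL6A2 hardly moved, at 6.23 to 6.56 after 7.4 Gy against 6.24 to 6.44 in the controls (log2 0.02, SE 0.12). A second, dimmer probe of COL6A2 was 0.84 higher (adjusted p = 0.0801), so its probes differed. The network collagen COL8A1 was 1.11 higher (SE 0.41, adjusted p = 0.104), with groups that overlapped, and 0.49 higher without control replicate 1.

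Of the elastic fibre genes, FBN1 was altered. It encodes fibrillin 1, the backbone of microfibrils, and read -0.33, 0.79, 0.77 and 0.69 in the controls and 1.70, 1.76, 1.59 and 1.40 after 7.4 Gy (log2 1.13, SE 0.24, 2.19-fold, adjusted p = 0.0102). The 4 irradiated animals lay close together and above all controls. ELN, or elastin, was dim, well above background on 3 of 4 control arrays and on all 4 after 7.4 Gy, and was 0.90 higher without overlap (SE 0.37, adjusted p = 0.145), or 0.53 without control replicate 1. FBLN5, which helps to deposit elastin on microfibrils, was 0.48 higher (SE 0.27, adjusted p = 0.286). Of the genes for collagen maturation, PCOLCE, an enhancer of procollagen C-terminal trimming, was 0.72 higher (SE 0.31, adjusted p = 0.159), or 0.42 without control replicate 1, and the cross-linking enzyme LOXL1 was level with the controls at -0.0052 (SE 0.30, adjusted p = 0.995), with a sign that changed with the scaling.

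The ADAMTS proteases were the least uniform group: 8 of 14 had a positive difference and the median was 0.05, yet 2 were altered. ADAMTS5, which cuts versican and other large proteoglycans, read -3.56, -1.49, -1.93 and -1.96 in the controls and -0.55, -0.76, -1.18 and -0.85 after 7.4 Gy, 2.63-fold higher without overlap (log2 1.40, SE 0.30, adjusted p = 0.0106). Its control replicate 1 was far below the other 3, and without that animal the difference was 0.96 (adjusted p = 0.0147), under the 2-fold limit. ADAMTS2, which removes the N-terminal propeptide of fibrillar procollagens, read -2.10, -1.37, -1.28 and -0.91 in the controls and 0.60, -0.34, -0.99 and -0.37 after 7.4 Gy (log2 1.14, SE 0.30, 2.21-fold, adjusted p = 0.0277), and it was the only altered gene of the 10 in which the groups overlapped. With the mean of its probes the difference was 0.11, since its dimmer probe gave -0.93. ADAMTS1, another versican-cutting protease, was 0.84 higher without overlap (SE 0.29, adjusted p = 0.0849). The other members of the family lay between -0.56, for ADAMTS20, and 0.69, for ADAMTS8, which was at 0.29 without control replicate 1.

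**Figure D2:**
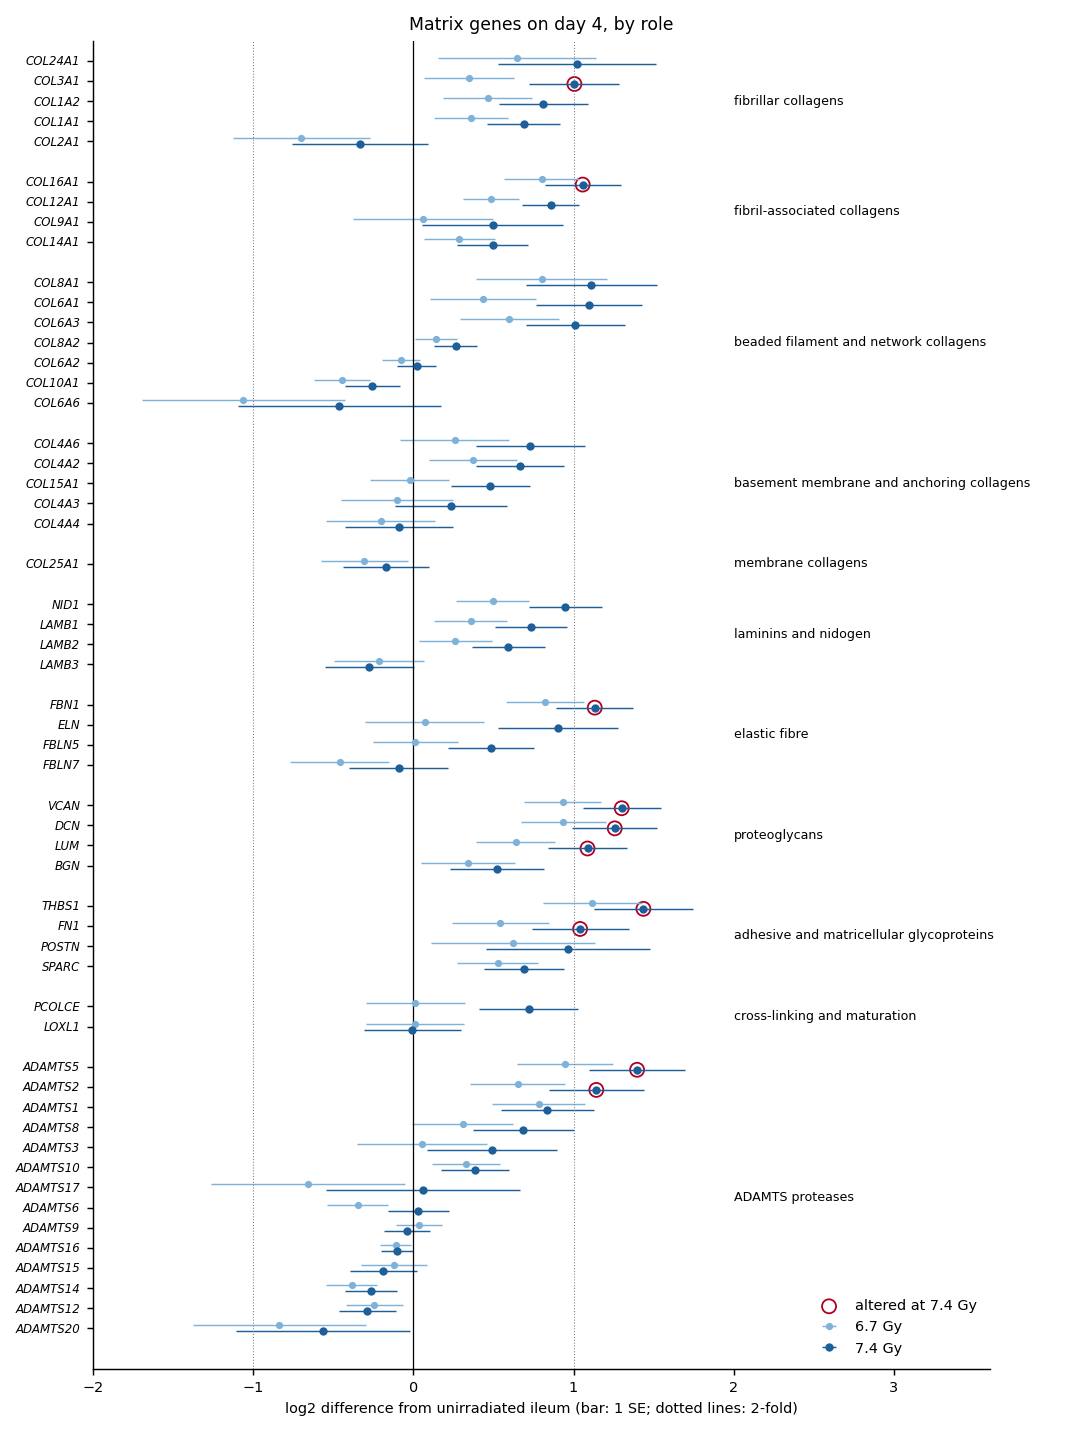
Log2 difference from unirradiated ileum on day 4 for the tested matrix genes whose values are reported, grouped by role, with light points for 6.7 Gy and dark points for 7.4 Gy; bars are 1 SE of the limma fit, dotted lines mark a 2-fold difference and red rings the 10 genes altered at 7.4 Gy. Proteoglycans and adhesive glycoproteins lie to the right at both doses (medians at 7.4 Gy of 1.17 and 1.002), while the ADAMTS proteases spread to both sides (median 0.05).

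Other probes of the same genes were compared with the brightest ones. Of 36 dimmer tested probes, in the 26 genes that had more than 1, 28 had the sign of the brightest probe on day 4 after 7.4 Gy, 6 were called higher and 0 lower. The 3 probes of DCN gave 1.26, 1.07 and 0.98, and the 4 probes of FN1 gave 1.02 to 1.11. COL3A1 gave 0.56 to 1.01 over its 4 probes. The probes of ADAMTS2, VCAN and ADAMTS9 disagreed. A second probe of ADAMTS2 gave -0.93 (adjusted p = 0.121), and of the other probes of VCAN, 1 gave 1.23 (adjusted p = 0.0109) and 1 gave -0.30 (adjusted p = 0.58). In ADAMTS9, another protease of versican, the brightest probe gave -0.04 and the other pair 0.99 and 0.94 (adjusted p = 0.0758 and 0.0442). Second probes also exceeded the brightest in COL1A1 (1.01, adjusted p = 0.0166) and COL14A1 (1.42, adjusted p = 0.0232, against 0.50), while in COL1A2 the second probe gave -0.01. Which probe reads the transcript more faithfully was not tested.

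The size of these differences depended on unirradiated replicate 1. Without it, 3 of the 10 genes were called, DCN (log2 1.06, adjusted p = 0.0405), THBS1 (1.17, adjusted p = 0.0443) and VCAN (1.09, adjusted p = 0.0196). Of the other 7, ADAMTS5 and FBN1 (0.86, adjusted p = 0.0352) kept an adjusted p below the threshold but were under 2-fold. LUM (0.98, adjusted p = 0.0526), COL16A1 (0.90, adjusted p = 0.0532), ADAMTS2 (0.92, adjusted p = 0.104), COL3A1 (0.89, adjusted p = 0.12) and FN1 (0.77, adjusted p = 0.158) passed neither limit. Of the 55 genes, 42 were positive with a median of 0.42. Leaving out replicate 1 of day 4 after 7.4 Gy, the highest of its group for 30 of the 55 genes, left 5 called, ADAMTS5, DCN, FBN1, THBS1 and VCAN. The share of all genes called in these refits was not computed. Slide pairs gave values without any averaging over slides: on slide 3, where irradiated replicate 1 met control 3, 41 of 55 genes were higher (median 0.66), and on slide 4, where replicate 2 met control 4, 46 were higher (median 0.51), with all 10 altered genes higher on both. With slide as a block, 6 genes were called, 5 of them among the 10, whose differences were then 1.02 to 1.51. With array position as a covariate 0 were called, although the 10 differences were then 1.19 to 1.78 with adjusted p from 0.0651 to 0.2. The effect of position was estimated from few arrays: within day 4 after 6.7 Gy, the pair in position 2 was higher than the pair in position 1 for 10 of the 55 genes (median difference -0.41). No other group had arrays in both of these positions. The pair in position 1 was replicates 1 and 2, and replicate 2 was the highest of its group for 40 of the 55 genes. The larger differences with this covariate therefore rest in large part on that animal.

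**Figure D3:**
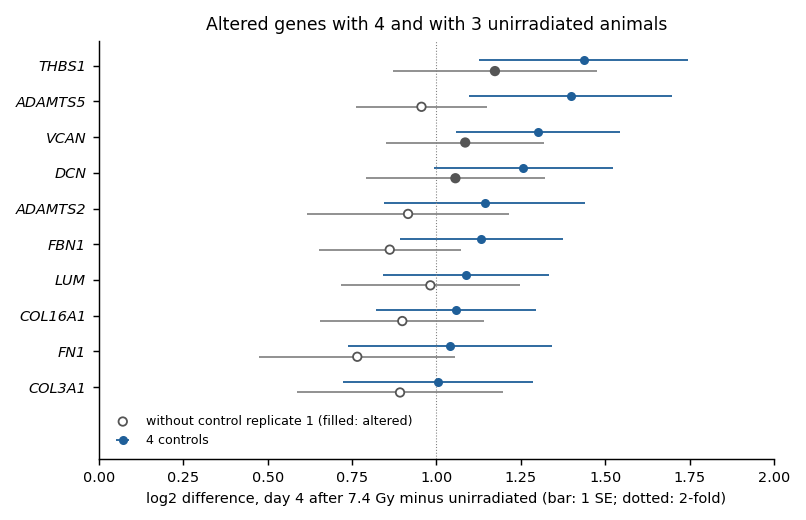
Log2 difference of the 10 altered genes, day 4 after 7.4 Gy minus unirradiated, with all 4 controls in blue and without control replicate 1 in grey; bars are 1 SE, the dotted line marks 2-fold, and filled grey points are the 3 genes still called (DCN, THBS1, VCAN). Every difference is smaller without that control, from 0.77 in FN1 to 1.17 in THBS1.

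At 4 days, 6.7-Gy TBI had altered 0 of the 55 genes in either direction in limma, where 0.701% of all genes were called higher and 0.446% lower. Without adjustment (p under 0.05, at least 2-fold) 1 passed, THBS1, where 3.28% of all genes did, and the methods' t-test gave 1 unadjusted and 0 after adjustment. Of the 55 genes 37 were positive, with a median of 0.26, against 42.1% and -0.07 for all genes. The controls are those of the 7.4-Gy comparison. In 8 genes all irradiated animals were above all controls, against 4.45% of all genes, and in 2 all were below, against 7.16%.

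The largest positive differences were those of THBS1, ADAMTS5, DCN and VCAN. VCAN read 0.37, 1.24, 0.25 and 0.41 after 6.7 Gy and lay above every control, 1.91-fold higher (log2 0.93, SE 0.24, adjusted p = 0.0452). It passed the adjusted p without the fold limit, the only matrix gene to do so, where 1.48% of all genes did, and it no longer passed without control replicate 1 (0.72, adjusted p = 0.126). THBS1 read -2.18, -1.38, -1.96 and -1.89, again above every control (log2 1.12, SE 0.31, 2.17-fold, adjusted p = 0.0563). DCN read 3.39, 4.81, 3.93 and 3.36, with no overlap and a wide spread, and was 1.91-fold higher (log2 0.94, SE 0.26, adjusted p = 0.0603). ADAMTS5 was 0.95 higher (adjusted p = 0.0851), FBN1 0.82 (adjusted p = 0.0675), COL16A1 0.80 (adjusted p = 0.0687) and LUM 0.64 (adjusted p = 0.137). The fibrillar collagens ran from -0.70 in COL2A1 to 0.65 in COL24A1, with COL3A1 at 0.35 (adjusted p = 0.458), COL1A1 at 0.36 (adjusted p = 0.345) and COL1A2 at 0.46 (adjusted p = 0.315). FN1 was 0.54 higher (adjusted p = 0.282). Without control replicate 1 the values of ADAMTS5, FN1 and COL1A1 were 0.50, 0.27 and 0.19.

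The level at this dose rested on 1 animal. Replicate 2 was the highest of its group for 40 of the 55 genes, its mean over them was 0.64 above the mean of the controls, and the other 3 animals read 0.10, 0.12 and -0.13. FN1 shows it: 3.56, 4.57, 3.67 and 3.31 in the 4 animals. Without replicate 2 the median over the 55 genes was 0.0074, and without control replicate 1 it was 0.11 with 29 genes positive. On slide 1 the median was 0.61 and on slide 2 it was -0.27, with 40 and 18 of 55 genes higher; slide 1 carried control replicate 1. The 2 irradiated animals in position 1 were replicates 1 and 2, so this pair includes the high animal. Against the controls in that position, replicate 1 among them, 40 genes were higher and the median was 0.51.

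The comparison of the doses on day 4 shared no animals between its groups. Of the 55 genes, 50 were higher after 7.4 Gy than after 6.7 Gy, with a median of 0.34, against 55.1% and 0.03 for all genes. The median was 0.53 without replicate 2 of 6.7 Gy and 0.22 without replicate 1 of 7.4 Gy. No single gene separated the doses: 0 matrix genes and 0% of all genes were called, the lowest adjusted p of a matrix gene was 0.877, and 0 passed at an unadjusted p under 0.05 with the fold limit, where 0.404% of all genes did. The methods' t-test called 0 as well. The largest differences were those of ELN (0.83, SE 0.37), ADAMTS17 (0.72, SE 0.61), PCOLCE (0.71, SE 0.31), COL6A1 (0.66, SE 0.33) and COL3A1 (0.66, SE 0.28). Array position was not balanced here, with all animals of 7.4 Gy in position 2 and those of 6.7 Gy split between positions 1 and 2. Fibroblast markers (6 of 6, median 0.28) and smooth muscle markers (4 of 4, 0.32) were also higher after 7.4 Gy. So were endothelial (7 of 7, 0.38) and pericyte markers (3 of 3, 0.49), while epithelial (4 of 7, 0.01) and leukocyte markers (4 of 6, 0.13) were mixed.

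Cell type markers also differed on day 4. Over all genes, 1.88% were called higher and 0.815% lower after 7.4 Gy, and 0.701% and 0.446% after 6.7 Gy. The mean over 6 fibroblast markers was 1.41 to 1.73 after 7.4 Gy against 0.24 to 1.06 in the controls. All 6 were higher and 1 was altered, C7, a complement component made by fibroblasts, which was 1.51 higher after 7.4 Gy (adjusted p = 0.000211) and 1.26 higher after 6.7 Gy (adjusted p = 0.00221). The mean over 3 pericyte markers, all 3 positive, was -0.86 to -0.35 against -3.13 to -1.30, and KCNJ8, a potassium channel subunit of pericytes, was altered (1.13, adjusted p = 0.0338), but not without control replicate 1 (0.78, adjusted p = 0.12). The 7 endothelial markers, all 7 positive, ran from -1.52 to -1.10 on average against -1.94 to -1.49, and VWF, the clotting factor of endothelium, was altered (1.12, adjusted p = 0.0406), but not without control replicate 1 (0.85, adjusted p = 0.149). Epithelial markers went the other way, with a mean over 7 of 3.80 to 4.13 against 4.28 to 4.74, and VIL1, the brush border protein villin, fell by 1.27 on the log2 scale (adjusted p = 0.000847), while 1 of the 7 was positive. Of 6 leukocyte markers 1 was altered upwards, CD14 of monocytes (1.14, adjusted p = 0.0107), and 1 downwards, CD79B of B cells (-1.25, adjusted p = 0.0163). Of 2 tested erythroid markers HBB, the beta chain of haemoglobin, was altered, at -5.88 (adjusted p = 1.69e-05) after 7.4 Gy and -6.11 (adjusted p = 1.18e-05) after 6.7 Gy. Of 3 tested glial markers 2 were positive after 7.4 Gy (median 0.71) and 0 were altered, with S100B at 0.93 (adjusted p = 0.119). The part of fibroblasts, pericytes, endothelium, epithelium, leukocytes, blood and glia in the matrix result was not tested.

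The 4 smooth muscle markers measured, ACTA2, DES, ACTG2 and SYNPO2, were all positive after 7.4 Gy and 0 were altered. Their mean was 4.87 to 5.55 against 2.84 to 5.04 in the controls, so replicate 1 of the controls sets the lower end. With that mean as a covariate for each array, an analysis added after the data were seen, 1 of the 10 genes was called, THBS1 at 1.03, and the 10 differences lay between 0.61 and 1.03. The median over the 55 genes was then 0.25 at 7.4 Gy, against 0.59 without the covariate, and at 6.7 Gy it was 0.10 and 0 were called. None of the defining markers named here was below background on any array.

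**Figure D4:**
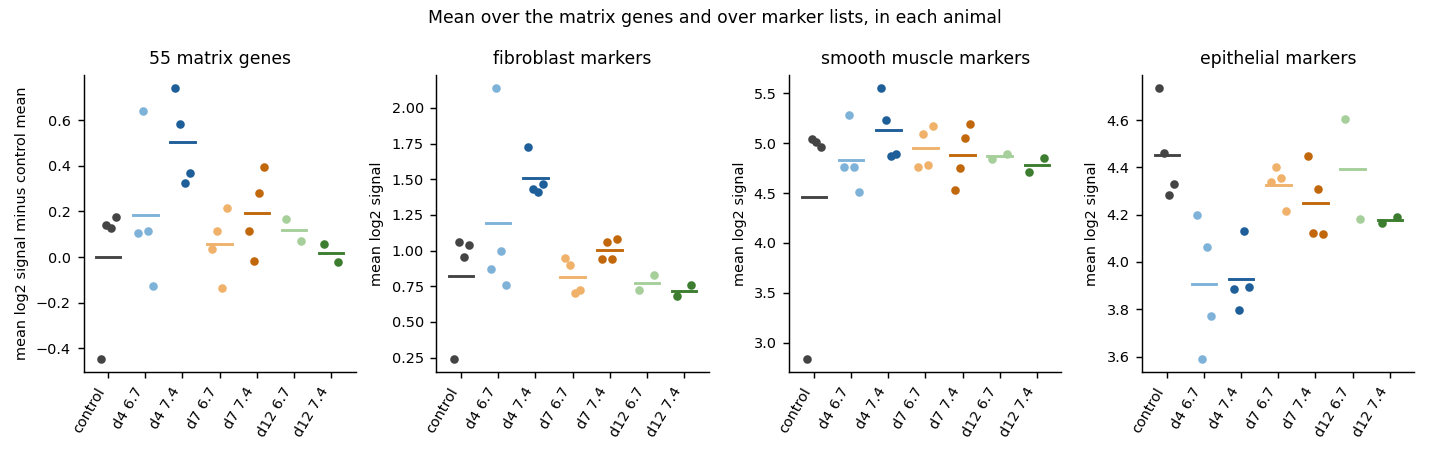
Mean over the 55 matrix genes, as a log2 difference from the mean of the controls, and mean log2 signal of the fibroblast, smooth muscle and epithelial markers, in each animal; points are animals, bars group means, d is day and the number after it the dose in Gy. Control replicate 1 is the lowest animal in the first 3 panels (-0.45, 0.24 and 2.84), replicate 2 of day 4 after 6.7 Gy stands above its group (0.64), and all 4 animals of day 4 after 7.4 Gy lie above all controls in the matrix and fibroblast panels.

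Genes that act on the matrix or read it were taken as 3 lists. Of 13 tested genes for collagen folding and processing, 1 was altered on day 4 after 7.4 Gy, LEPREL1, a prolyl 3-hydroxylase of collagen (log2 1.19, SE 0.29, adjusted p = 0.0185), and the median of the list was 0.40, where 1.88% of all genes were called higher. Of 17 tested genes of TGF-beta and PDGF signals, 3 were altered, all higher. They were CTGF, a TGF-beta-induced matricellular protein (1.24, adjusted p = 0.043), the ligand TGFB3 (1.26, adjusted p = 0.016) and the co-receptor TGFBR3 (1.41, adjusted p = 0.00212), and the median was 0.44. Of 20 tested integrins and other matrix receptors, 0 were altered and the median was 0.17. After 6.7 Gy the medians of these lists were 0.22, 0.12 and -0.03, in the same order, and 0 of their genes were altered, where 0.701% of all genes were called higher. CTGF was then 1.02 higher (adjusted p = 0.112), TGFB3 1.02 (adjusted p = 0.0638) and TGFBR3 0.85 (adjusted p = 0.0576). Without control replicate 1, TGFBR3 was the only gene of the 3 lists called after 7.4 Gy (1.17, adjusted p = 0.00828), with LEPREL1 at 0.92 (adjusted p = 0.071), CTGF at 1.16 (adjusted p = 0.119) and TGFB3 at 0.87 (adjusted p = 0.0405). PDGFRA stands both in the PDGF list and among the fibroblast markers.

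By day 7 no matrix gene was altered at either dose. After 6.7 Gy, 32 of 55 genes were positive with a median of 0.08, against 0.0016 for all genes. At an unadjusted p under 0.05 with the fold limit 0 passed, where 1.45% of all genes did, and 0.34% of all genes were called. After 7.4 Gy, 39 were positive with a median of 0.20, 0 passed unadjusted where 2.34% of all genes did, and 0.723% of all genes were called. The methods' t-test called 0 at both doses.

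Some genes of day 4 remained above the controls on day 7 after 7.4 Gy without passing the test. VCAN read 0.26, 0.46, 0.59 and 0.85, all above the highest control (log2 0.90, SE 0.24, 1.87-fold, adjusted p = 0.0864). ADAMTS5 read -1.002, -1.25, -1.35 and -1.44, all above the highest control of -1.49 (0.98, SE 0.30, 1.97-fold, adjusted p = 0.142). In all, 8 genes did not overlap upwards, against 3.96% of all genes: these and COL1A1 (0.53), COL12A1 (0.53), DCN (0.55), FBN1 (0.64), LUM (0.69) and NID1 (0.70). COL10A1, a network collagen known from cartilage, had all animals below all controls (-0.37, adjusted p = 0.371), the only matrix gene to do so, against 4.36% of all genes. FN1, by contrast, read 2.87, 3.54, 3.90 and 3.80, across the range of the controls (0.29, adjusted p = 0.707). Without control replicate 1 ADAMTS5 was at 0.53, FBN1 at 0.37, DCN at 0.34 and FN1 at 0.017, and the median of the 55 genes on day 7 was 0.03 after 7.4 Gy and -0.10 after 6.7 Gy, with 31 and 15 genes positive. Within slides the median after 7.4 Gy was 0.78 on slide 1 and 0.17 on slide 2, and after 6.7 Gy it was 0.52, -0.04, -0.23 and 0.07 on slides 1 to 4, where slide 1 carried control replicate 1.

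On day 12, with 2 animals a dose, the matrix genes were near the controls. The median was 0.11 after 6.7 Gy, 0.05 after 7.4 Gy and 0.10 for both doses averaged, against 0.05, -0.02 and 0.02 for all genes. No matrix gene was altered at either dose or in their mean, where 0.156%, 0.0425% and 0.298% of all genes were called. At an unadjusted p under 0.05 with the fold limit 1 gene passed after 6.7 Gy and 1 in the mean, the versican-cutting protease ADAMTS20, with a difference of -1.95 after 6.7 Gy and well above background on 1 of those 2 arrays, and 0 passed after 7.4 Gy. The corresponding shares of all genes were 1.67%, 1.46% and 1.95%. The methods' t-test gave 1 unadjusted after 6.7 Gy, 0 after 7.4 Gy and 0 after adjustment. DCN was at 3.20 and 3.08 after 6.7 Gy and at 2.98 and 3.30 after 7.4 Gy, inside the range of the controls except for the last animal, which was just above it. VCAN was at -0.23 and -0.30 after 6.7 Gy and at 0.29 and -0.10 after 7.4 Gy. FBN1 read 0.70 and 0.51, then 1.04 and 0.51. Without control replicate 1 the medians were -0.01, -0.11 and -0.05.

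**Figure D5:**
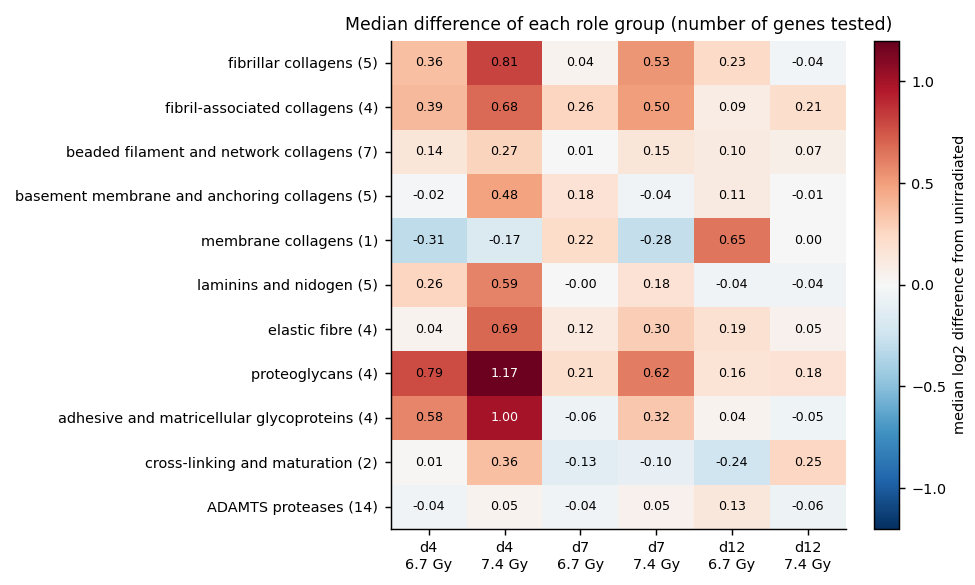
Median log2 difference from unirradiated ileum over the tested genes of each role (number of genes in brackets), for each day and dose; red is higher and blue lower than the controls. The proteoglycans (1.17), adhesive glycoproteins (1.002) and fibrillar collagens (0.81) have the highest medians on day 4 after 7.4 Gy, and by day 12 most medians lie near 0, with COL25A1, the sole membrane collagen, at 0.65 after 6.7 Gy. Without control replicate 1 the middle values on day 4 after 7.4 Gy are 0.53 and 0.77 for the adhesive glycoproteins and 0.73 for the fibrillar collagens, so the order of these groups changes.

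Irradiated groups were also compared with each other over time. The controls do not enter these differences, but their spread enters the errors, since all 7 groups share 1 model. Between day 4 and day 12, with both doses averaged (8 and 4 animals), 2 matrix genes were called, both lower, where 1.54% of all genes were called lower and 1.47% higher. COL1A2 read 2.47, 2.90, 2.14 and 1.54 after 6.7 Gy and 3.02, 2.54, 2.25 and 2.63 after 7.4 Gy on day 4. On day 12 it read 1.57 and 0.54, and 2.20 and 1.32, a difference of -1.02 (SE 0.24, adjusted p = 0.00835) with overlapping animals. THBS1 fell from between -2.18 and -1.04 on day 4 to -3.27, -2.07, -3.03 and -3.19 on day 12 (-1.19, SE 0.27, adjusted p = 0.00642). Only replicate 2 of day 12 after 6.7 Gy was within the day 4 range. The count was 1 to 3 when 1 animal was left out, and 1 without replicate 1 or 2 of day 4 after 6.7 Gy, replicate 1 of day 4 after 7.4 Gy, or replicate 2 of day 12 at either dose.

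Without the fold limit 13 matrix genes were lower on day 12 than on day 4, where 8.37% of all genes were. They were COL1A2, COL3A1, COL6A3, COL12A1, COL16A1, LAMB1, FBN1, DCN, LUM, VCAN, THBS1, ADAMTS2 and ADAMTS5. The animals of day 4 after 7.4 Gy also entered the comparison with the controls, so the 2 comparisons are not independent. In 3 genes all day 12 animals lay below all day 4 animals, and the share of all genes doing so was not computed. They were DCN (-0.90, adjusted p = 0.0131), ADAMTS5 (-0.83, adjusted p = 0.0343) and POSTN, which is not among the 13. COL10A1 was 0.46 higher (adjusted p = 0.0407). The median over the 55 genes was -0.31, against 0.05 for all genes, and 17 genes were positive. It was -0.19 without replicate 2 of day 4 after 6.7 Gy and -0.20 without replicate 1 of day 12 after 7.4 Gy. In the same comparison 0 of 6 fibroblast markers (median -0.61), 0 of 3 pericyte markers (-0.84) and 0 of 7 endothelial markers (-0.43) were positive. Of 7 epithelial markers 6 were positive (0.44), and of 6 leukocyte markers 3 were (0.06). The part of these cells in the change was not tested.

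From day 4 to day 7 the median was -0.36 after 7.4 Gy, with 10 of 55 genes positive, and -0.16 after 6.7 Gy, with 23 positive, against -0.01 and 0.05 for all genes. The median after 6.7 Gy was 0.0029 without replicate 2 of day 4 and -0.27 without replicate 4 of day 4. No matrix gene was called in either, where 1.05% and 0.453% of all genes were, 0 passed at an unadjusted p under 0.05 with the fold limit, where 2.19% and 1.86% did, and the methods' t-test called 0. After 6.7 Gy 1 gene was called when replicate 1 of day 4 was left out. The dose comparison on day 7 called 0 matrix genes and 0% of all genes. It gave 0 unadjusted (0.418% of all genes) and 0 by the t-test. The median was 0.18 higher after 7.4 Gy with 37 genes positive, against -0.02 and 45.2% for all genes. Without replicate 4 of 7.4 Gy it was 0.12.

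Across animals of the same group the matrix genes varied together. After each group's mean was removed, the mean correlation over the 1485 pairs of the 55 genes was 0.27 on the 24 arrays, against 0.0079 for all genes. This is a description, since the arrays share scaling and the genes share animals. The highest mean correlations with the other matrix genes were those of LAMB2 (0.45), ADAMTS2 (0.44), NID1 (0.44), VCAN (0.44) and FN1 (0.43). The epithelial laminin chain LAMB3 (-0.0016) stood outside this pattern, and ADAMTS20 was the lowest at -0.13. The genes closest to DCN were NID1 (0.85), LAMB2 (0.83), LAMB1 (0.79), VCAN (0.78) and COL4A2 (0.78).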

How the data were processed

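Total RNA of ileum from 24 rhesus macaques was labelled and hybridized by the authors to 1-colour Agilent arrays (4 x 44K, V2), 1 array for each animal. Per the file headers, Feature Extraction 11.0.1.1 gave each spot a background-subtracted intensity. The deposited raw table holds the same intensities (43553 of 43553 probes with 1 spot agree within 1e-04 log2). In the deposited normalized table the authors' log2 values have the 75th percentile of the array subtracted, and as deposited each probe is centred on its median. Groups came from the sample titles. Day 12 was used where titles and day field give it, although the treatment protocol speaks of 21 days.

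Here log2 of the scanner intensity was taken, spots marked as outliers were dropped unless they were a probe's only one, replicate spots were averaged, and the 75th percentile over the 43603 probes that are not controls was subtracted. Symbols came from the deposited normalized table (23674 probes). A probe was kept if at least 1 group had it well above background in every animal. The 36108 kept entered limma 3.58.1 (R 4.3.3) as a single model with a mean per group (7 groups), and p-values were Benjamini-Hochberg adjusted over all of them. Counts over all genes use the brightest probe of each of 14116 genes. The fit was tested on simulated data. Precision is set by the few animals per group, and p-values measure the spread between these animals, each a separate individual. Not every matrix gene is given by value, though all 55 tested are in the counts and medians. Named genes were all altered ones, a fixed core by role, and the widest and narrowest over the controls, with others added as single examples after their values were seen. The members, gene lists and tests were chosen with earlier results of these data known. As spot means are not in the scanner files, the normexp alternative (offset 50) used the spot median. Replicate numbers do not pair animals: of 36 same-numbered pairs, 7 had correlated deviations above 0.1 (r from -0.26 to 0.23). All per-sample columns were mapped, 0 were left unused. Alternatives are given in the closing section.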

Additional observations from a re-analysis of the deposited data

Results flagged for a closer look

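Among 160 gene and group sets of 4 animals examined, 12 had 1 animal standing apart by Dixon's criterion, and chance flags about 1 in 20. Unirradiated replicate 1 stood below the other controls in FBN1 (-0.33, others 0.69 to 0.79), NID1 (-0.16, others 0.73 to 0.75) and the mean over the matrix genes (-0.45, others 0.13 to 0.18). Replicate 2 of day 4 after 6.7 Gy stood above its group in ELN (-4.05, others -5.92 to -5.64), FBN1 (1.998, others 1.03 to 1.099), NID1 (1.65, others 0.74 to 0.88) and VCAN (1.24, others 0.25 to 0.41), and replicate 4 stood below it in LOXL1 (1.07, others 2.54 to 2.66). Replicate 1 of day 4 after 7.4 Gy stood above the others in COL16A1 (3.47, others 2.60 to 2.64) and VCAN (1.45, others 0.71 to 0.80), and replicate 3 below them in LOXL1 (1.70, others 2.31 to 2.38). On day 7 after 6.7 Gy, ADAMTS5 was low in replicate 3 (-2.32, others -1.72 to -1.63).

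The change from day 4 to day 12, doses averaged, passed the limma test in COL1A2 (-1.02) and THBS1 (-1.19). In 7 further cases every animal of 1 irradiated group lay above the mean of the controls and every animal of another below it, or the reverse, and these differences were not tested. On day 12, ADAMTS1 was at 0.79 after 6.7 Gy and -0.25 after 7.4 Gy relative to the controls, a difference of -1.04, and PCOLCE at -0.44 and 0.24, a difference of 0.68. After 7.4 Gy, THBS1 went from 0.78 on day 7 to -0.14 on day 12 (-0.92). Between days 4 and 12 after 7.4 Gy the differences were -1.09 in ADAMTS1, -0.77 in LAMB1, -1.48 in POSTN and -1.58 in THBS1.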

How the results depend on the processing

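Dim genes such as ELN, COL2A1 and ADAMTS20 rest on signals near background. On day 4 after 7.4 Gy the count of 10 altered genes became 12 with quantile normalization or with only probes above background on all arrays. It was also 12 with trend and robust moderation or with no fold limit. It was 10 with the percentile over probes above background on all arrays or the deposited values. With normexp it was 9, and with all probes tested or the mean of a gene's probes it was 8. These counts can include genes outside the 10. The count was 6 with slide as a block, 5 of them among the 10, whose differences were then 1.02 to 1.51. It was 1 with the smooth muscle markers as a covariate and 0 with array position as a covariate. With the methods' t-test it was 0 after Benjamini-Hochberg adjustment (12 before it). The cause was not tested. With the replicate block the count was 9, and FN1 was the gene lost; the block changed no other count. Leaving out 1 animal gave 3 to 13, with 3 without unirradiated replicate 1, 5 without replicate 1 of day 4 after 7.4 Gy and 13 without unirradiated replicate 4. Over 22 alternatives, THBS1 was called in 20, DCN in 19, ADAMTS5 and VCAN in 18, FBN1 in 17, LUM in 16, COL16A1 in 15, ADAMTS2 in 14, and COL3A1 and FN1 in 10.

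On day 4 after 6.7 Gy the count of 0 became 1 with quantile normalization, only probes above background on all arrays, the mean of probes, slide as a block or no fold limit, and 0 to 1 when 1 animal was left out. For day 12 against day 4 the count of 2 became 14 without a fold limit and 0 with normexp, and 1 to 3 when 1 animal was left out. For day 7 against day 4 after 6.7 Gy it was 0 to 1 in the same way, and the counts of the other comparisons stayed at 0. Array position could be fitted only for the day 4 comparisons with the controls and for the comparisons of doses. The median of all tested probes lay between -0.10 and 0.08 under every scaling, and the median over the matrix genes on day 4 after 7.4 Gy was 0.59, 0.67 with quantile normalization, 0.61 with the percentile over detected probes and 0.40 with normexp.

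Of the values of named genes under the alternatives, 42 of 619 changed sign on day 7 after 6.7 Gy, 51 of 557 and 43 of 557 on day 12 after 6.7 and 7.4 Gy, and 47 of 588 in the mean of both doses, in genes whose reported differences were at most 0.53 in size. On day 4 after 6.7 Gy the genes that changed sign were ADAMTS2 (-0.0080) and COL6A2 (0.15) with the mean of probes. With quantile normalization they were COL6A2 (0.0030) and COL15A1 (0.0046), with normexp COL15A1 (0.019) and LOXL1 (-0.0022), and with array position COL15A1 (0.18) and LAMB3 (0.031). With slide as a block they were COL15A1 (0.046), FBLN5 (-0.10) and LOXL1 (-0.048), and with the smooth muscle covariate ELN (-0.23), PCOLCE (-0.20), FBLN5 (-0.057) and LOXL1 (-0.017). On day 4 after 7.4 Gy they were COL6A2 with normexp (-0.016) and with the smooth muscle covariate (-0.015), LOXL1 (0.038) with slide, LAMB3 (0.22) and LOXL1 (0.79) with array position, and LOXL1 with the percentile over detected probes (0.013) and with quantile normalization (0.049). On day 7 after 7.4 Gy ADAMTS16 was 0.028 with normexp, 0.0038 with the percentile over detected probes and 0.0053 with quantile normalization. When 1 animal was left out, the ranges that crossed 0 on day 4 after 6.7 Gy were -0.25 to 0.14 for COL15A1, -0.37 to 0.27 for ELN, -0.33 to 0.23 for FBLN5, -0.47 to 0.014 for LAMB3, -0.20 to 0.39 for LOXL1, -0.29 to 0.33 for PCOLCE and -0.0031 to 1.27 for POSTN. After 7.4 Gy they were -0.051 to 0.062 for COL6A2 and -0.21 to 0.16 for LOXL1. On day 7 after 7.4 Gy they were -0.16 to 0.12 for ADAMTS1, -0.050 to 0.038 for ADAMTS16, -0.095 to 0.24 for COL15A1, -0.022 to 0.38 for COL4A2, -0.040 to 0.53 for ELN, -0.10 to 0.52 for PCOLCE and -0.36 to 0.90 for POSTN.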
